A study of Mus musculus with 9 samples.

Results

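The 40 genes described here act in cell division, 13 in DNA replication and 27 in mitosis, and were followed in RNA of the mouse lacrimal gland, the gland beside the eye that secretes the watery part of the tear film. They were chosen by name from 54232 genes in the count table as genes that dividing cells switch on, at a time when earlier results of these data were known. Each was matched from its Ensembl identifier to a GENCODE M21 symbol, and all 40 were found and passed the filter on low counts that left 14944 genes in the tests. The study compared female C57BL/6J mice of 2, 12 and 24 months, fed ad libitum, with 3 libraries at each age. No transgene, deletion or drug is labelled in any group. The samples are whole glands, so a lower level can come from fewer dividing cells or from less of the RNA in each, and bulk RNA cannot tell these apart. The labels do not say that each library is a separate mouse, so the p-values measure the spread between these samples.

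A cell that divides first copies its DNA in S phase and then separates the copies in mitosis. Replication genes are switched on by E2F transcription factors at the border of G1 and S phase. Most mitosis genes are activated later, in G2, by B-Myb and Foxm1 with the MuvB core. In resting cells the DREAM complex holds back genes of the cell cycle, most mitosis genes among them. Quiescent tissue therefore holds little RNA of either class, and the adult lacrimal gland consists mainly of secretory acinar cells that rarely divide.

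The promoters of both classes were compared first, for short runs of letters that regulators read. RefSeq gave a promoter, running from 250 bases before to 50 bases after the transcription start on the GRCm38.p6 assembly, for 32 of the 40 genes. Of these, 10 were replication genes and 22 mitosis genes. Ccne2, Tpx2, Mcm4, Gins2, Kif20a, Foxm1, Ccna2 and Aurkb were not among them. A gene was counted when any of its promoters held the letters on either strand. The letters of the cell cycle genes homology region, or CHR (TTTGAA or TTTAAA), to which MuvB binds, were found in 20 of 22 mitosis promoters, or 90.9%, and in 4 of 10 replication promoters. Among the 10782 tested genes with a promoter, 23.3% held them, and among all 27025 genes of the promoter table, 30.6% did. The CCAAT box (CCAAT), read by NF-Y, was found in 20 of 22 mitosis promoters and in 7 of 10 replication promoters, against 42.2% of tested genes and 41.1% of all genes. Both letters together were found in 19 of 22 mitosis promoters, or 86.4%, and in 3 of 10 replication promoters, against 9.31% of tested genes and 12.2% of all genes. Letters of the E2F type (TTTCCCGC, TTTGGCGC, TTTCGCGC, TTCCCGCC or TTTGGCGG, which can overlap one another) were found in 5 of 10 replication promoters, in Cdk1 alone of the mitosis promoters, and in 8.1% of tested genes and 4.51% of all genes. A match of letters is a description and not a measured binding site.

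The promoter stretches below show these letters in capitals, 5′ to 3′ on the strand of the gene, for genes whose levels are given further on. Plk1, Cdc20 and Cdk1 belong to the mitosis class, and Mcm5, Mcm6 and Tyms to the replication class. Each stretch lies upstream of the RefSeq start and outside the exons of its own gene in GENCODE M21. The stretches are Plk1 at chr7:122159315-122159434 on the plus strand, which overlaps an exon of the antisense gene Gm15489, Cdc20 at chr4:118437353-118437463 on the minus strand, Cdk1 at chr10:69352939-69353052 on the minus strand, Mcm5 at chr8:75109349-75109508 on the plus strand, Mcm6 at chr1:128359706-128359825 on the minus strand and Tyms at chr5:30073626-30073745 on the minus strand, all on GRCm38.p6.
Plk1: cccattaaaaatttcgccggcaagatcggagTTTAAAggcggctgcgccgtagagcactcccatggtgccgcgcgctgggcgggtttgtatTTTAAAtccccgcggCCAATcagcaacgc
Cdc20: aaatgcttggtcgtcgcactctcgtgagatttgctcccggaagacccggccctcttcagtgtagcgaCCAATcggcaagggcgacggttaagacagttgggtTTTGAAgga
Cdk1: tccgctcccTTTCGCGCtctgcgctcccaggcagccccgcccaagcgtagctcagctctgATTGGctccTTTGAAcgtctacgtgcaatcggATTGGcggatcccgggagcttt
Mcm5: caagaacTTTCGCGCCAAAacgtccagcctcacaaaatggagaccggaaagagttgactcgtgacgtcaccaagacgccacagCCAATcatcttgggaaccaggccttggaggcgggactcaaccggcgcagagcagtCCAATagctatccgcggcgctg
Mcm6: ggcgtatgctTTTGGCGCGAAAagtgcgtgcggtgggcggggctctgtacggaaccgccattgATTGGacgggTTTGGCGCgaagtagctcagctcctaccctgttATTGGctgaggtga
Tyms: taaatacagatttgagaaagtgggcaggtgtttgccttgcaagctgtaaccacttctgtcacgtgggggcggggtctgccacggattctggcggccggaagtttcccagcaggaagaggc
In the Plk1, Cdc20 and Cdk1 stretches the capitals mark CHR and CCAAT letters, with ATTGG being the CCAAT box on the other strand, and the first capitals of Cdk1 are of the E2F type. In Mcm5 and Mcm6 the long run of capitals is a pair of overlapping E2F letters on opposite strands, and the rest are CCAAT boxes and, in Mcm6, a further E2F match. The Tyms promoter held none of the letters searched.

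The libraries were close in depth, with 40516863 to 42573877 counts assigned to genes in each. The 10 most abundant genes took 61.1% to 68.1% of them, and the summed level of lacrimal acinar markers was 246000 to 385000 CPM, which are counts scaled to the library total with TMM factors. Against this background the 40 genes were scarce. Pcna was the highest of them per kilobase of exon, at 5.98 CPM per kilobase over the 9 libraries, followed by Rrm2 at 1.70 and Mcm2 at 1.40. Several members had few counts, and Kif11 had 0 counts in replicate 3 of the 2-month group, which allows up to 3.

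Replicate 1 of the 2-month group stood apart from the other 8 libraries. It was the highest of the 9 for 35 of the 40 genes, 12 of 13 replication and 23 of 27 mitosis genes, whereas it was the highest for 9.73% of all tested genes. Replicate 3 of the 12-month group was the lowest of the 9 for 23 of the 40, against 8.23% of all tested genes. Results that rest on these libraries are therefore given below with and without them.

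**Figure D1:**
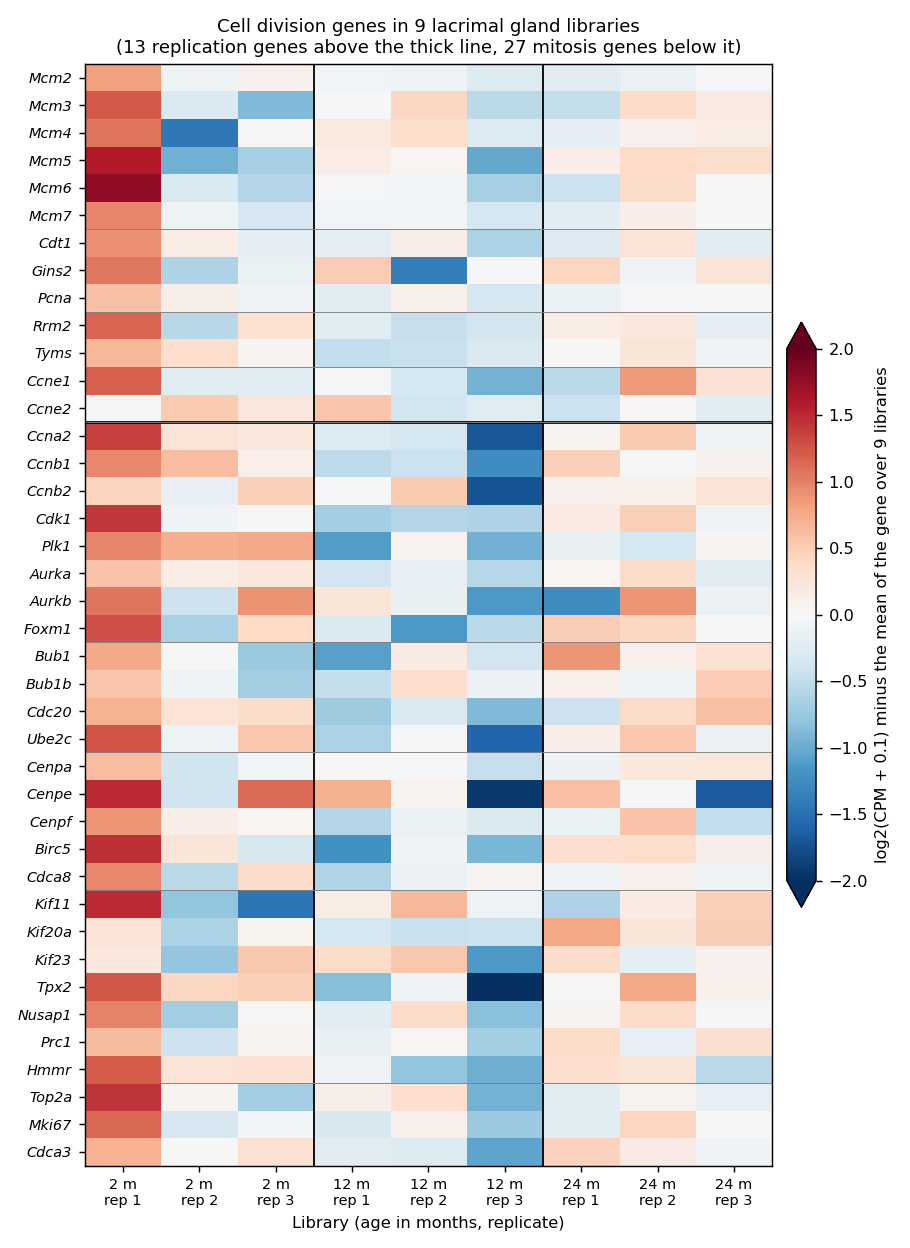
Level of each of the 40 genes (rows) in the 9 libraries (columns) as log2(CPM + 0.1) minus the gene's mean over the 9, with red above and blue below that mean. The column of 2-month replicate 1 is red in nearly every row, and the column of 12-month replicate 3 is mostly blue, more so among the 27 mitosis genes.

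Summed over the genes of a class, the mitosis genes were lowest at 12 months. Their summed level was 74.6, 33.7 and 38.3 CPM in the 3 libraries of 2 months, 26.9, 32.9 and 17.9 CPM at 12 months, and 36.3, 43.0 and 34.6 CPM at 24 months. On this scale every library of 12 months lay below every library of the other ages. In counts before scaling the mitosis sums were 2996, 1149 and 1353 for the 2-month libraries, 1192, 1610 and 788 for those of 12 months and 1385, 1875 and 1716 for those of 24 months, where the ages overlapped. The 13 replication genes summed to 107, 49.3 and 49.9 CPM at 2 months, 50.3, 53.0 and 40.4 CPM at 12 months, and 48.0, 58.4 and 53.7 CPM at 24 months, and these ranges overlapped among all 3 ages. The ratio of mitosis to replication sums, which no scaling between libraries can move, was 0.696, 0.685 and 0.767 in the 2-month libraries, 0.535, 0.620 and 0.443 in those of 12 months and 0.756, 0.736 and 0.643 in those of 24 months. The 12-month ratios were below all others, including that of the 2-month library with the highest levels. The mean ratio was 0.716 ± 0.0445 at 2 months, 0.533 ± 0.0885 at 12 months and 0.712 ± 0.0603 at 24 months (SD, n = 3 each). On the log2 scale with each gene weighted equally, the mean of the mitosis genes lay 1.26 below that of the replication genes at 2 months, 1.63 below at 12 months and 1.32 below at 24 months, with SDs of 0.17, 0.28 and 0.15. On that scale the ages overlapped, since 12-month replicate 2, at 1.31 below, was nearer 0 than 1 library of 2 months and 2 libraries of 24 months. No test was made of these sums and ratios, since they are scores over chosen genes.

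**Figure D2:**
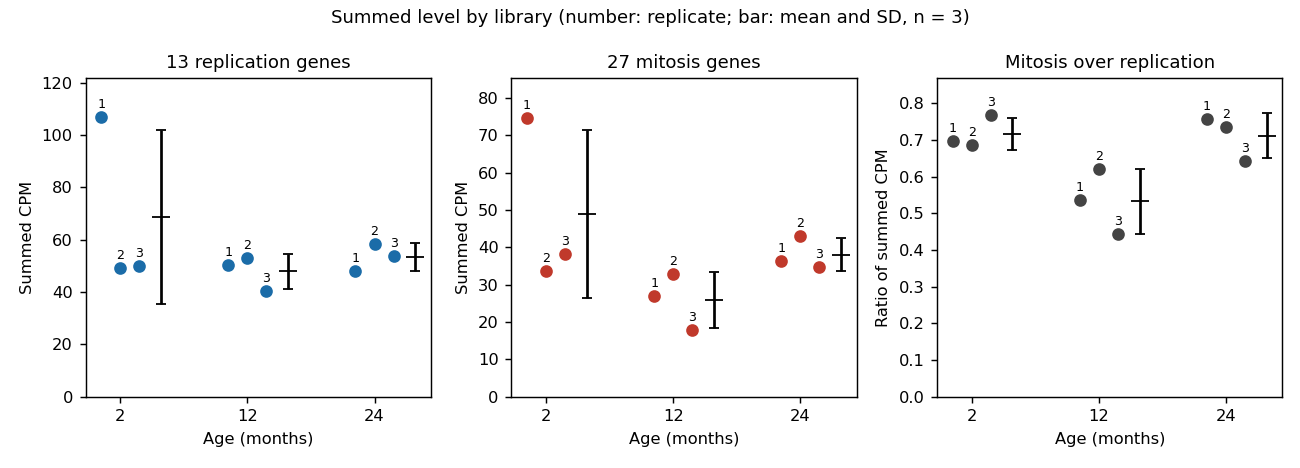
Summed CPM of the 13 replication genes (left), of the 27 mitosis genes (middle) and the ratio of the mitosis sum to the replication sum (right) against age in months, with 1 point a library, its replicate number, and the mean and SD of 3. The 12-month ratios run between 0.443 and 0.620 and lie below the 6 others, while the replication sum is high in 1 library of 2 months alone.

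Between 12 and 2 months, 3 of the 40 genes fell and none rose. The genes that fell were Tyms of the replication class and Ccnb1 and Plk1 of the mitosis class, by edgeR's quasi-likelihood test with Benjamini-Hochberg adjustment over all tested genes and a threshold of 0.05. Among all tested genes, 2.52% were called lower and 5.41% higher in the same comparison. At an unadjusted p under 0.05, 16 of the 40 were lower and 0 higher, beside 10.2% of all tested genes lower and 13% higher. DESeq2 called 12 of the 40 lower and 0 higher, beside 4.73% of all tested genes lower and 7.48% higher. With limma voom and sample weights Plk1 alone was called lower, beside 3.02% of all tested genes lower and 3.9% higher. Fitted values lay below 0 for 39 of the 40 genes, against 49.2% of all tested genes, and Kif23 was at 0.00. The median log2 fold change was -0.51 over the replication genes and -0.86 over the mitosis genes, beside 0.01 over all tested genes. The libraries of the 2 ages did not overlap, with all of 12 months lower, for 11 of the 40 genes, 1 of them a replication gene, and for 12.4% of all tested genes, and none had all of 12 months higher, as 15.1% of all tested genes did.

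Plk1, the kinase that drives centrosome maturation and mitotic entry, had 0.339, 0.899 and 0.386 CPM at 12 months, against 1.77, 1.47 and 1.5 CPM at 2 months. All libraries of 12 months were below all of 2 months, and the first 2-month library was close to the other two of its age. Its log2 fold change was -1.53 (SE 0.40, adjusted p = 0.0356). Plk1 spans chr7:122159439-122169873 on the plus strand in GENCODE M21. Ccnb1, or cyclin B1, the partner of Cdk1 at mitotic entry, had 0.587, 0.634 and 0.318 CPM at 12 months, against 1.82, 1.41 and 0.962 CPM at 2 months, again without overlap. Its log2 fold change was -1.44 (SE 0.39, adjusted p = 0.0398), and its promoter held a CHR and 2 CCAAT matches. The Ccnb1 gene lies at chr13:100778650-100786570 on the minus strand.

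Tyms, thymidylate synthase, which makes the thymidine nucleotide for DNA, was the only replication gene called. It had 2.53, 2.60 and 2.93 CPM at 12 months, against 5.71, 4.58 and 3.71 CPM at 2 months, and the ages did not overlap. The 12-month libraries were close together and the 2-month libraries spread more widely. The log2 fold change was -0.80 (SE 0.20, adjusted p = 0.0291), about the size fitted for Rrm2, a subunit of the ribonucleotide reductase that supplies deoxynucleotides. Rrm2 had 3.68, 3.17 and 3.39 CPM at 12 months, against 9.97, 2.97 and 5.43 CPM at 2 months, where the ages overlapped, and was not called (log2 fold change -0.85, SE 0.33, adjusted p = 0.139). Tyms spans chr5:30058202-30073617 on the minus strand.

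These 3 calls depended on single libraries. Without 2-month replicate 1, 0 of the 40 genes were called, the medians were -0.13 for replication and -0.58 for mitosis genes, and 28 of 40 fitted values stayed below 0, 7 of 13 for replication and 21 of 27 for mitosis. Without 2-month replicate 2 Rrm2 alone was called, without 2-month replicate 3 Ccnb1 and Tyms, without 12-month replicate 1 none, without 12-month replicate 2 Plk1 and Tpx2, and without 12-month replicate 3 Tyms alone. The libraries of 24 months enter this comparison through the filter on low counts, the scaling and the estimate of the spread. Without 1 of them, 2 to 4 genes were called. Over the fits with 1 library left out, 0.671% to 2.72% of all tested genes were called lower. With any single library left out, the log2 fold change of Plk1 was -1.29 or lower, that of Ccnb1 -1.20 or lower and that of Tyms -0.63 or lower. Without both 2-month replicate 1 and 12-month replicate 3, the replication median was 0.05 and the mitosis median -0.39. Libraries scaled by their totals alone, which put the median of all tested genes at 0.31, also gave 0 calls, with medians of -0.28 for replication and -0.57 for mitosis genes.

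Among the cyclins, kinases and regulators of mitosis, all 8 genes had fitted values below 0 at 12 against 2 months, with a median of -1.32, and 5 of them did not overlap between the ages, beside 12.4% of all tested genes with all of 12 months lower. Cdk1, the kinase that cyclins A and B activate, had 1.04, 1.12 and 1.09 CPM at 12 months, against 4.76, 1.64 and 1.73 CPM at 2 months. The 12-month values were nearly equal and lay below all of 2 months, but the adjusted p was 0.0584 with a log2 fold change of -1.32 (SE 0.39). Foxm1, a transcription factor for mitosis genes, had 0.745, 0.368 and 0.614 CPM at 12 months, against 2.44, 0.558 and 1.27 CPM at 2 months, with overlap and no call. Aurka, the kinase of the spindle poles, had 1.92, 2.25 and 1.68 CPM at 12 months, against 3.81, 2.82 and 3.0 CPM at 2 months. It did not overlap but was not called (log2 fold change -0.72, SE 0.24, adjusted p = 0.0834). Ccna2 (cyclin A2) had a log2 fold change of -1.43 and an adjusted p of 0.0593, and Ccnb2 and Aurkb overlapped between the ages.

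Cdc20, which activates the anaphase promoting complex to release sister chromatids, had 0.836, 1.14 and 0.727 CPM at 12 months, against 2.39, 1.76 and 1.87 CPM at 2 months. The ages did not overlap, and the adjusted p was 0.0537 (log2 fold change -1.15, SE 0.33). Cdc20 shares its locus with the opposite-strand gene Elovl1, which had 9262 counts over the 9 libraries against 579 for Cdc20. The strand setting of the counting is not given in the sources used here, so reads from the part that such genes share cannot be told apart. Overlap was judged on whole gene spans and not on exons. The same holds for Mcm7 and Cops6, Ccne2 and Ints8, Kif20a and Cdc23, Ccna2 and Exosc9, Gins2 and Gse1, Prc1 and Rccd1, and Cdca8 and 9930104L06Rik. Birc5, or survivin, of the chromosomal passenger complex, had 0.610, 1.47 and 0.773 CPM at 12 months, against 4.41, 1.85 and 1.22 CPM at 2 months, with overlap and no call.

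Among the 7 spindle, motor and cytokinesis genes the fitted values spanned a wide range. Tpx2, which brings Aurka to spindle microtubules, had the lowest fitted value of the 40 (log2 fold change -1.66, SE 0.48, adjusted p = 0.055), whereas the kinesins Kif11 and Kif23 were at -0.12 and 0.00, each with under 40 counts summed over any age. Among the 5 centromere and passenger genes fitted values ran between -1.39 and -0.29, and Cenpe was unlike the rest in its spread, from 0.0682 to 0.949 CPM within the 12-month group. Bub1b, a gene of the spindle checkpoint, was at -0.07.

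Mki67 and Top2a, the genes most often used to mark dividing cells, had fitted values nearer 0 than Plk1 and Ccnb1. Mki67 had 3.82, 5.13 and 2.84 CPM at 12 months, against 10.7, 3.76 and 4.61 CPM at 2 months. Top2a, the topoisomerase that untangles chromosomes, had 3.43, 4.05 and 1.59 CPM at 12 months, against 8.75, 3.29 and 1.95 CPM at 2 months. For both, the values of the 2 ages overlapped except for the first 2-month library. Neither was called, with log2 fold changes of -0.69 (SE 0.35) and -0.63 (SE 0.46), and without that library the fitted value of Top2a was 0.21.

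Of the replication genes, the 6 subunits of the MCM helicase, which unwinds DNA at the fork, had fitted values between -0.95 and -0.11 at 12 against 2 months, and none was called. Mcm5 had 2.82, 2.62 and 1.20 CPM at 12 months, against 7.82, 1.26 and 1.56 CPM at 2 months. Its 2-month mean rested on the first library, and the log2 fold change was -0.69 with that library and 0.65 without it. Mcm6, whose promoter stretch is given above, had 4.13, 4.09 and 2.64 CPM at 12 months, against 14.7, 3.41 and 2.80 CPM at 2 months, with overlap and no call (log2 fold change -0.95, SE 0.50, adjusted p = 0.288). Mcm2 had 9.17, 8.95 and 7.82 CPM at 12 months, against 16.8, 8.90 and 10.1 CPM at 2 months. Mcm7 had 5.24, 5.27 and 4.27 CPM at 12 months, against 10.8, 5.08 and 4.30 CPM at 2 months. Both were steady in the 8 other libraries, and the fitted value of Mcm7 was 0.07 without the first 2-month library, where all 9 libraries gave -0.45.

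Pcna, the sliding clamp of the replication fork, had 12.0, 15.2 and 11 CPM at 12 months, against 21.3, 15.3 and 13.5 CPM at 2 months. The ages overlapped, and the log2 fold change was -0.39 (SE 0.17, adjusted p = 0.179). Ccne1, the cyclin E1 that starts S phase with Cdk2, had 0.565, 0.429 and 0.250 CPM at 12 months, against 1.45, 0.470 and 0.481 CPM at 2 months, with overlap and no call. Cdt1 and Gins2, which load and form the replicative helicase, were at -0.57 and -0.51 and not called.

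**Figure D3:**
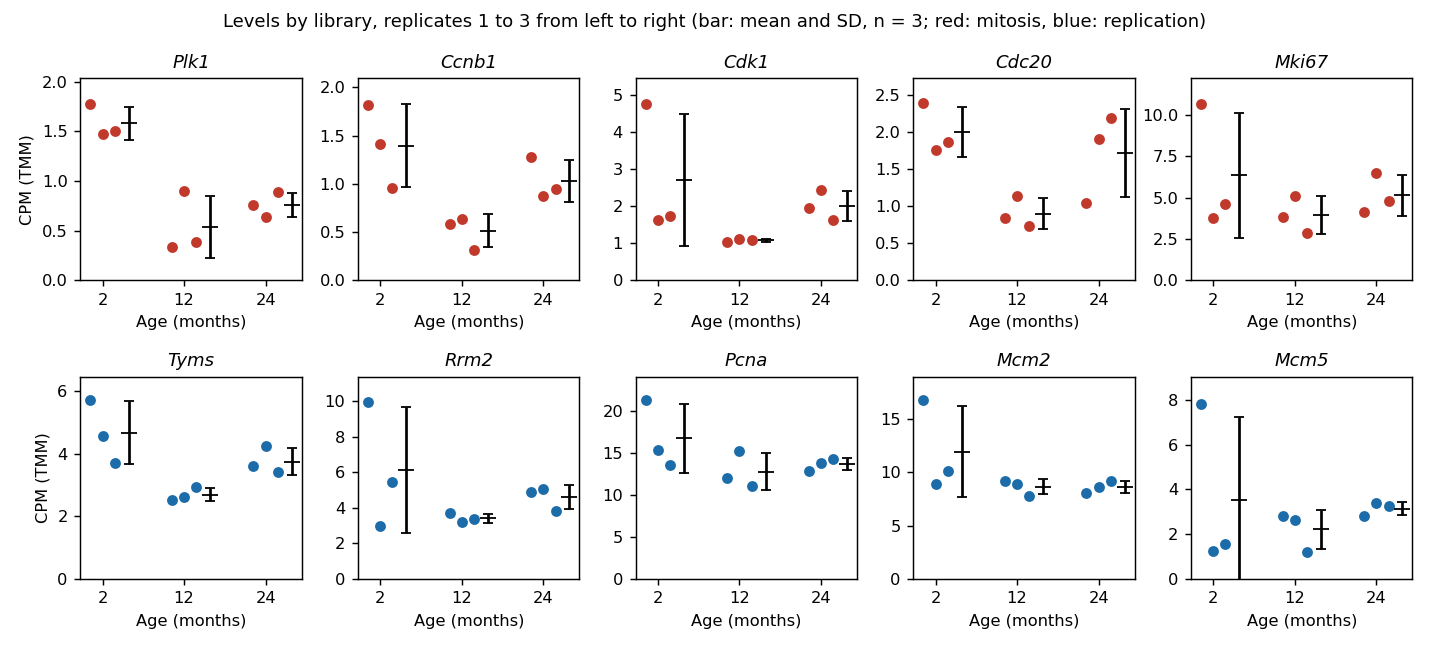
CPM of 5 mitosis genes (upper row) and 5 replication genes (lower row) against age in months, with replicates 1 to 3 from left to right at each age and the mean and SD of 3 as bars. Plk1, Ccnb1, Cdk1, Cdc20 and Tyms have all 12-month points below all 2-month points, while Mki67, Rrm2, Mcm2 and Mcm5 differ mainly by the first 2-month point.

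Between 24 and 2 months, no member passed the test in either direction by edgeR, beside 7.56% of all tested genes called lower and 9.82% higher. DESeq2 called 0, beside 8.9% of all tested genes lower and 12.0% higher, and limma voom with sample weights called Plk1 lower, beside 7.87% lower and 7.83% higher. At an unadjusted p under 0.05, Mcm2 and Plk1 were lower and 0 members higher, beside 14.5% of all tested genes lower and 17.1% higher. The fitted value was below 0 for 35 of the 40 genes, against 49.1% of all tested genes, and the medians were -0.32 for replication and -0.38 for mitosis genes, beside 0.01 over all genes. Without 2-month replicate 1 the medians turned to 0.21 and 0.04, and 18 of 40 values were below 0. Plk1 was the 1 member whose libraries did not overlap, with 0.759, 0.642 and 0.886 CPM at 24 months, against 1.77, 1.47 and 1.5 CPM at 2 months (log2 fold change -1.05, SE 0.39, adjusted p = 0.0869). In all tested genes, 16.7% were lower without overlap. Ccnb1 had 1.28, 0.871 and 0.946 CPM at 24 months and Tyms 3.61, 4.24 and 3.40 CPM, and both overlapped the 2-month values given above. The comparisons of 12 and of 24 months share the 2-month libraries, and so share whatever sets the first of them apart.

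Between 24 and 12 months, a comparison without that library, 34 of the 40 fitted values were above 0 and no member was called by edgeR, DESeq2 or limma voom, beside 2.79% of all tested genes called higher and 1.6% lower. At an unadjusted p under 0.05, 7 of the 40 were higher, namely Tyms, Ccnb1, Cdk1, Cdc20, Kif20a, Tpx2 and Cdca3, and 0 lower, beside 9.96% of all tested genes higher and 8.93% lower. DESeq2 called 4.91% of all tested genes higher and 3.19% lower in this comparison, and limma voom 2.87% and 1.74%. The medians were 0.15 for the replication genes and 0.47 for the mitosis genes, beside -0.02 over all tested genes, of which 52.3% were fitted below 0. Without 12-month replicate 3, the library lowest for most members, the medians were 0.06 and 0.39, and 30 of the 40 values were above 0. All libraries of 24 months lay above all of 12 months for 10 members, 2 replication and 8 mitosis genes, and for 12.1% of all tested genes. Ccnb1 was among them, with a log2 fold change of 1.0 (SE 0.39, adjusted p = 0.176), as was Tyms with 0.48 (SE 0.20, adjusted p = 0.205). Cdk1 had 1.94, 2.45 and 1.63 CPM at 24 months, against 1.04, 1.12 and 1.09 CPM at 12 months, without overlap (log2 fold change 0.89, SE 0.39, adjusted p = 0.243). Plk1 was not among them, since its second 12-month library, at 0.899 CPM, was above all of 24 months.

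Other named members differed in whether their 24-month values overlapped those of 12 months. Cdc20 had 1.05, 1.90 and 2.19 CPM, with the first of these below the highest 12-month value. Foxm1 had 1.36, 1.28 and 0.946 CPM and Birc5 1.96, 1.99 and 1.67 CPM, and both lay above their 12-month values without overlap and without a call. Rrm2 did the same with 4.87, 5.07 and 3.81 CPM. Mki67 had 4.11, 6.51 and 4.81 CPM, Top2a 2.72, 3.32 and 2.82 CPM, Aurka 2.62, 3.30 and 2.17 CPM, and Ccne1 0.367, 1.12 and 0.725 CPM, all overlapping the 12-month group. Pcna had 12.8, 13.8 and 14.2 CPM, Mcm6 3.12, 5.48 and 4.11 CPM, Mcm2 8.07, 8.62 and 9.18 CPM, Mcm7 4.69, 6.00 and 5.52 CPM and Mcm5 2.80, 3.37 and 3.26 CPM, all again overlapping the 12-month group. Taking the 3 ages in a single edgeR test, Plk1 (adjusted p = 0.0374) and Tyms (adjusted p = 0.0382) passed, beside 17.0% of all tested genes. Without 2-month replicate 1, 12-month replicate 1 or 24-month replicate 2 or 3, 0 members passed this test, and without 12-month replicate 2 there were again 2.

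**Figure D4:**
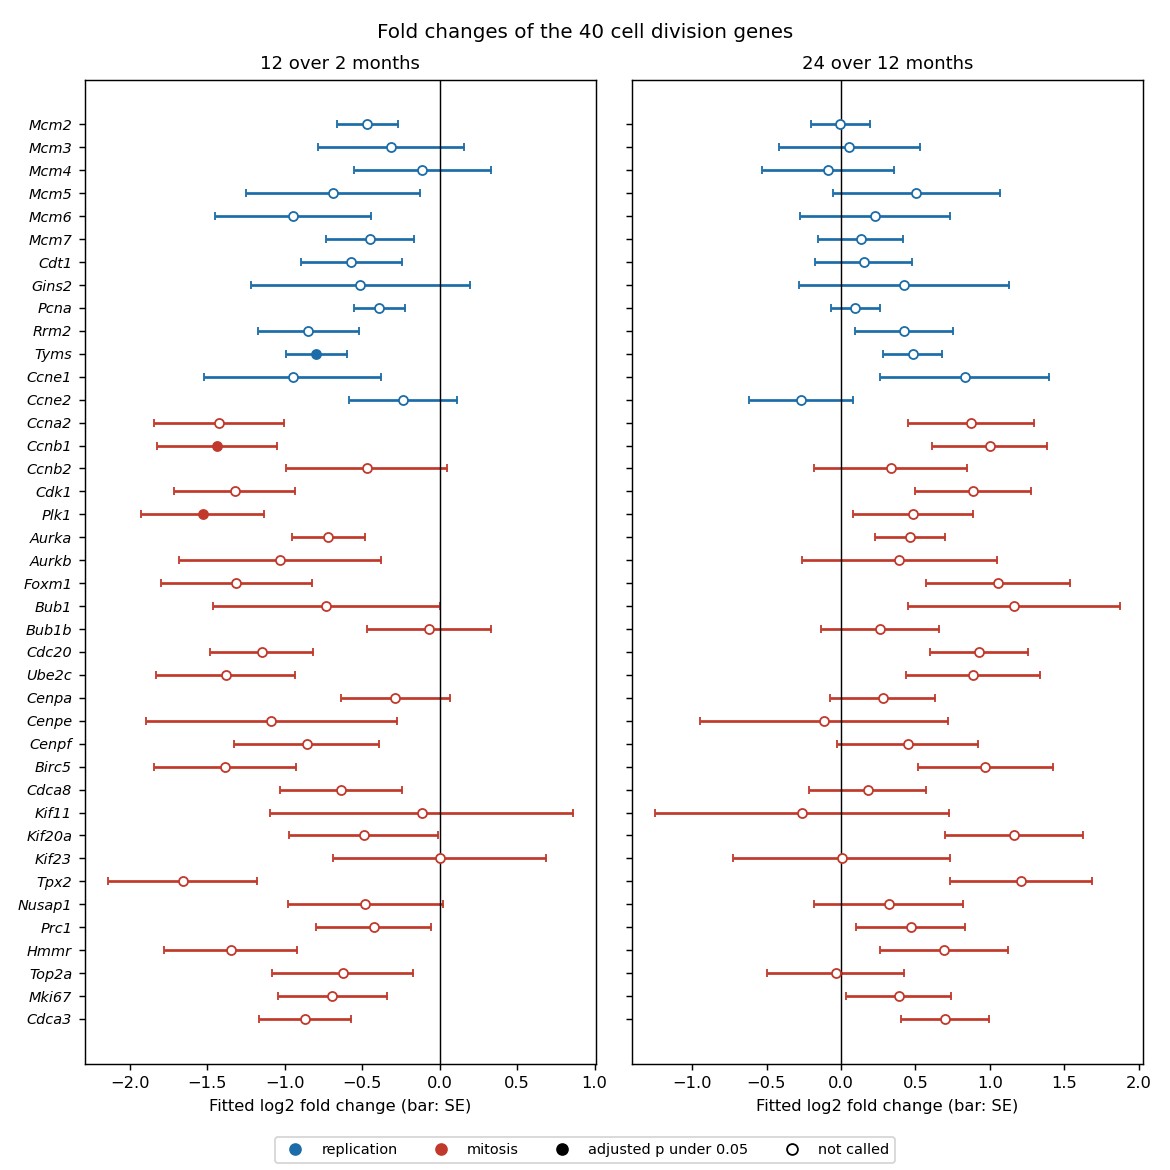
Fitted log2 fold change with its SE for each of the 40 genes (rows), 12 over 2 months on the left and 24 over 12 months on the right, with filled points for an adjusted p under 0.05. Nearly all points on the left lie below 0, with Tyms, Ccnb1 and Plk1 filled, and 34 of 40 points on the right lie above 0 with none filled.

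**Figure D5:**
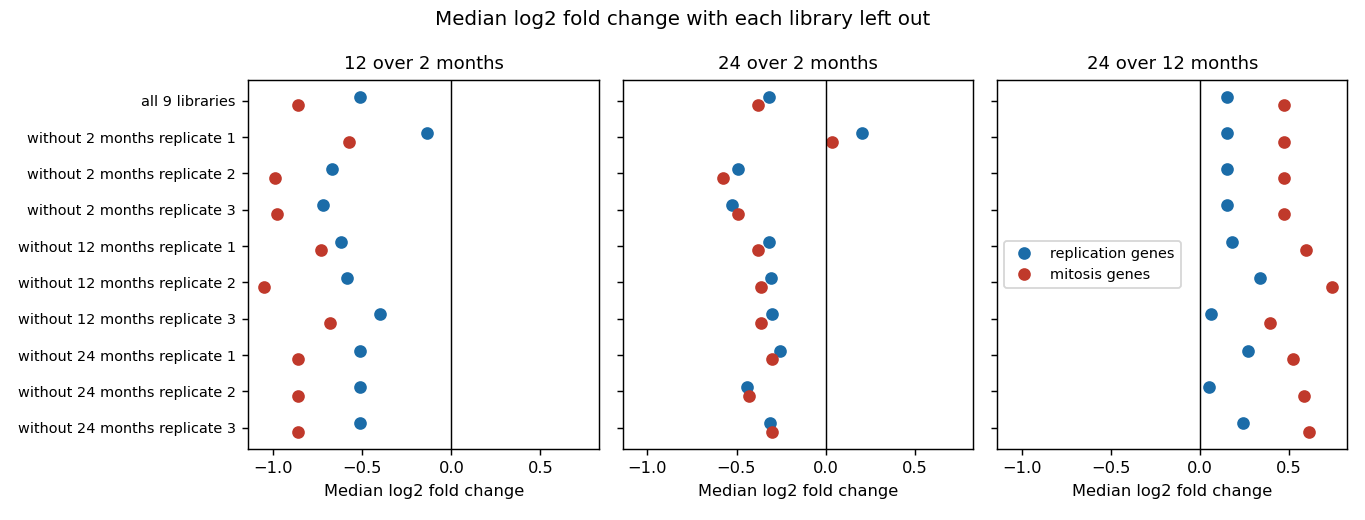
Median log2 fold change of the replication genes (blue) and of the mitosis genes (red) with all 9 libraries and with each left out in turn, for the 3 comparisons. The mitosis median stays between -1.05 and -0.58 at 12 over 2 months and between 0.39 and 0.74 at 24 over 12 months, whereas the medians at 24 over 2 months pass above 0 without 2-month replicate 1.

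Genes of the same pathways that are not among the 40 were read from 3 further lists. Of 54 other mitosis genes, 46 were tested, and at 12 against 2 months 5 fell and 0 rose by the same edgeR test, beside 2.52% of all tested genes lower and 5.41% higher, with a median log2 fold change of -0.56. They were Ckap2, Spc24, Spc25, Cks2 and Iqgap3. Ckap2, which stabilises spindle microtubules, had 0.226, 0.613 and 0.295 CPM at 12 months, against 2.22, 1.64 and 1.22 CPM at 2 months (log2 fold change -2.15, SE 0.46, adjusted p = 0.0158). Spc24 and Spc25 are subunits of the Ndc80 complex, which joins kinetochores to microtubules. Spc24 had 0.700, 0.429 and 0.454 CPM at 12 months, against 2.02, 1.38 and 1.44 CPM at 2 months (log2 fold change -1.61, SE 0.35, adjusted p = 0.0159), and Spc25 had 5.42, 5.72 and 4.84 CPM at 12 months, against 13.2, 10.6 and 8.91 CPM at 2 months (log2 fold change -1.03, SE 0.23, adjusted p = 0.0174). In Ckap2, Spc24 and Spc25 all 12-month libraries were below all of 2 months. Cks2, a small subunit of the Cdk1 complex, had 0.813, 1.08 and 1.20 CPM at 12 months, against 2.27, 2.41 and 2.38 CPM at 2 months (adjusted p = 0.0247), and its 2-month libraries were level, the first included. Between 24 and 2 months and between 24 and 12 months edgeR called none of these mitosis genes in either direction, with 6 lower in the first and 6 higher in the second at an unadjusted p under 0.05, near the shares of all tested genes given above, and the medians were -0.15 and 0.38. DESeq2 called Cks2 and Ncaph lower in the first, beside 8.9% of all tested genes, and Troap higher in the second, beside 4.91%. With limma voom Cks2 was called lower in the first, beside 7.87% of all tested genes. With 46 genes tested, these calls are below those shares, and nothing is read from them about the list. Without 2-month replicate 1 the median of the 46 genes at 12 against 2 months was -0.03. Cks2 alone was then called lower and Cdc25b, a phosphatase that activates Cdk1, higher, beside 2.59% and 4.27% of all tested genes. Spc24 alone was called without 2-month replicate 2 or 12-month replicate 1, and Ckap2 and Troap without 12-month replicate 2.

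Of 40 other replication genes, 38 were tested and edgeR and limma voom called none in any comparison of 2 ages. DESeq2 called E2f1, a transcription factor of replication genes, and Uhrf1 lower at 12 against 2 months, beside 4.73% of all tested genes. It called Prim1, a primase subunit, higher at 24 against 12 months, beside 4.91%. With 38 genes tested, these calls do not stand out from those shares, and nothing is read from them about the list. At an unadjusted p under 0.05 by edgeR, 8 were lower and 0 higher at 12 against 2 months. The shares of all tested genes there were 10.2% lower and 13% higher. At 24 against 2 months 1 was lower, beside 14.5% of all tested genes. At 24 against 12 months 2 were higher, beside 9.96% of all tested genes. The medians of the 38 genes were -0.23 at 12 against 2 months, -0.16 at 24 against 2 months and 0.07 at 24 against 12 months. Without 2-month replicate 1 the medians against 2 months were 0.20 at 12 months and 0.23 at 24 months. Pole2, a subunit of DNA polymerase epsilon, was then higher in both, beside 4.27% and 8.26% of all tested genes. With all 9 libraries, in these as in the 40 genes, the fitted values of mitosis genes lay farther from 0 than those of replication genes at 12 months, and no test of that difference was made.

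The 28 genes of G1 entry and of cell cycle inhibition had a median log2 fold change of 0.08 at 12 against 2 months, where 3 rose and 1 fell, beside 5.41% of all tested genes called higher and 2.52% lower. At 24 against 2 months 3 rose and 2 fell, beside 9.82% called higher and 7.56% lower, with a median of 0.00. At 24 against 12 months 1 rose and 1 fell, beside 2.79% and 1.6%. With 28 genes in the list, these counts are close to the shares of all tested genes, and nothing is read from them about the list. Cdk6, a kinase that carries cells through G1, fell at both ages. It had 6.90, 7.13 and 5.55 CPM at 2 months, 3.30, 3.50 and 3.82 CPM at 12 months and 2.51, 1.97 and 2.17 CPM at 24 months, with no overlap between any of the ages (log2 fold change -0.88, SE 0.17, adjusted p = 0.00929 at 12 months, and -1.56, SE 0.18, adjusted p = 0.000287 at 24 months). Rbl2, the p130 pocket protein of the DREAM complex, rose at both, with 9.67, 8.02 and 9.11 CPM at 2 months, 13, 13.4 and 13.1 CPM at 12 months and 12.4, 12.0 and 11.8 CPM at 24 months (log2 fold change 0.56, SE 0.10, adjusted p = 0.00772 at 12 months, and 0.43, SE 0.10, adjusted p = 0.0161 at 24 months). The first 2-month library lay close to its group for Cdk6 and Rbl2. Cdk6 at 24 against 2 months was called with each library left out in turn and with libraries scaled by totals alone, whereas at 12 against 2 months it was lost without 2-month replicate 2 and with scaling by totals. Rbl2 was called at 12 against 2 months with each library left out, and at 24 against 2 months in all but the fit without 2-month replicate 2.

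Btg1, an antiproliferative gene, had 30.9, 27.9 and 28.0 CPM at 2 months, 47.3, 48.2 and 36.9 CPM at 12 months and 31.9, 30.2 and 29.5 CPM at 24 months. It was high at 12 months alone, rising against 2 months (log2 fold change 0.61, adjusted p = 0.00561) and falling at 24 against 12 months (-0.53, adjusted p = 0.0159). Its relative Btg2 had 21.1, 18.6 and 15.8 CPM at 2 months, 22.7, 29.6 and 31.3 CPM at 12 months and 28.8, 26.0 and 25.3 CPM at 24 months. Btg2 rose at 12 against 2 months (0.59, adjusted p = 0.0198) and at 24 against 2 months (0.53, adjusted p = 0.0198), without overlap in either. Cdkn1a, or p21, an inhibitor of cyclin-dependent kinases, had 1.97, 1.15 and 2.04 CPM at 2 months, 1.11, 1.17 and 1.70 CPM at 12 months and 2.51, 3.90 and 3.99 CPM at 24 months. It rose against both younger ages without overlap (log2 fold change 1.39, adjusted p = 0.0224 against 12 months, and 1.01, adjusted p = 0.0364 against 2 months). Lin37, a subunit of the MuvB core, had 8.96, 7.06 and 7.97 CPM at 24 months, against 9.54, 12.7 and 11.3 CPM at 2 months, and fell without overlap (log2 fold change -0.48, SE 0.14, adjusted p = 0.0302). Of these calls, Btg1 at 12 against 2 months was kept with each library left out. Cdkn1a was lost against 2 months without any 1 of the 2-month libraries or of 24-month replicates 2 and 3, and against 12 months without 12-month replicate 1 or 2 or 24-month replicate 2 or 3. The Btg1 fall was lost without those same 4 libraries. Btg2 at 12 against 2 months was lost without replicate 2 or 3 of either age, and at 24 against 2 months without 2-month replicate 2 or 3 or 24-month replicate 1. Lin37 was lost without replicate 2 or 3 of either age.

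Other cells of the gland changed between the same groups, and their part in the levels above was not tested. The summed level of 6 B cell markers was 0.374, 0.352 and 0.340 CPM at 2 months, 99.4, 151 and 17.0 CPM at 12 months, and 13.5, 16.4 and 25.3 CPM at 24 months. Within the 12-month group the mitosis sum and the B cell sum had the same order, with replicate 2 highest and replicate 3 lowest in both. The T cell, plasma cell, endothelial and salivary gland sums had that order too. Of the 12-month plasma cell sums of 834, 872 and 745 CPM, the single gene Xbp1 gave 740, 736 and 705 CPM. At 24 months the B cell sum was highest in replicate 3, where the mitosis sum was lowest, at 34.6 CPM. The markers of germinal centre B cells, which divide fast, summed to 27.2, 18.1 and 21.1 CPM at 2 months, 46.2, 33.1 and 53.8 CPM at 12 months, and 25.2, 30.7 and 41.4 CPM at 24 months, with 12-month replicate 2 the lowest of its group. That library was the highest of its group for 23 of the 40 genes, and for 34.0% of all tested genes. Myoepithelial markers, of the contractile cells around the acini, were lowest at 12 months, as the mitosis sum was. They summed to 134, 169 and 149 CPM at 2 months, 90.0, 88.6 and 98.5 CPM at 12 months, and 153, 138 and 134 CPM at 24 months. Within ages the order differed. Replicate 1 of 2 months and replicate 2 of 12 months were highest of their group for the mitosis sum and lowest for these markers. At 24 months replicate 3 was lowest in both. Of 4 tested myoepithelial genes, 3 (Acta2, Myh11 and Cnn1) fell at 12 against 2 months, beside 2.52% of all tested genes called lower. The same 3 rose at 24 against 12 months, beside 2.79% called higher, and Krt14 was called in neither. The myoepithelial sums of 12 months lay below all others. Fibroblast markers summed to 108, 75.5 and 135 CPM at 2 months, 82.0, 91.5 and 93.2 CPM at 12 months, and 130, 125 and 197 CPM at 24 months. The macrophage sum was 35.1 to 67.4 CPM at 2 months, 172 to 227 CPM at 12 months and 192 to 277 CPM at 24 months. The adipocyte sum was 0.113 to 0.797 CPM at 2 months, 6.57 to 21.2 CPM at 12 months and 4.61 to 18.1 CPM at 24 months. The T cell sum was 0.792 to 1.20 CPM at 2 months, 6.09 to 23.1 CPM at 12 months and 7.86 to 15.2 CPM at 24 months. The lacrimal acinar sum was 300000 to 385000 CPM at 2 months, 256000 to 286000 CPM at 12 months and 246000 to 338000 CPM at 24 months.

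Transcripts of neighbouring tissues were present in single libraries. Skeletal muscle markers summed to 26.2 CPM in 12-month replicate 1 and 50.1 CPM in 12-month replicate 3, against at most 1.1 CPM in each of the other 7. Without both, and with a single 12-month library assumed to vary like the rest, 0 of the 40 genes were called at 12 against 2 months, and the medians were -0.45 for replication and -0.63 for mitosis genes. At 24 against 12 months the same fit gave medians of 0.07 and 0.27, with 27 of the 40 values above 0. Salivary gland markers ran between 0.573 and 859 CPM and were highest in 2-month replicate 3, 12-month replicate 2 and 24-month replicate 2. Without these 3 libraries the medians at 12 against 2 months were -0.88 and -1.12, with 0 genes called of the 40 and 0.199% of all tested genes called lower.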

How the data were processed

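RNA of 9 lacrimal gland samples was sequenced as 100 bp paired-end reads on a BGISEQ500RS, per the labels' protocols. The authors deposited raw counts per Ensembl gene and a second table of log2 values. The submitters' processing notes name cutadapt, FastQC, STAR, HTSeq, DESeq2 and GRCm38 without roles, and no source used here gives the strand setting or annotation release. The deposited log2 values equalled log2(count / size factor + 1) for 100% of values within 1e-06 and entered no test. Of 54232 genes, 54079 matched a GENCODE M21 symbol.

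The main test on raw counts was the edgeR (4.0.16, under R 4.3.3) quasi-likelihood test. All 9 libraries entered the fit, which left 6 residual degrees of freedom, after TMM normalisation and removal of low genes by filterByExpr at a minimum of 10. The 14944 genes left were adjusted together by Benjamini-Hochberg, and 0.05 was the threshold. The common coefficient of variation was 21.2%. CPM used TMM-scaled totals, and levels on the log2 scale had 0.1 CPM added. On simulated counts of 14944 genes the fit recovered 50.5%, 59.8% and 61.5% of genes changed by 1 log2 unit at 12 against 2, 24 against 2 and 24 against 12 months, with 7, 10 and 4 false calls among 123, 152 and 147. Alternatives included DESeq2 1.42.0, limma 3.58.1 voom with sample weights, other scalings, filters and thresholds, a replicate block, and each library left out. Replicate numbers were checked for pairing: correlations of same-numbered libraries between ages ran between -0.154 and 0.061, so the numbers were not used as pairs.

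The 40 genes, the pathway lists and the marker lists were chosen with earlier results of these data known. Values in every library are given for called members, the 3 replication and 3 mitosis members of highest mean CPM and a fixed set (Mki67, Top2a, Cdk1, Ccnb1, Foxm1, Mcm5, Pcna, Rrm2, Ccne1, Birc5 and Cdc20). For up to 4 genes per pathway list and direction called by edgeR, values are given at least in the libraries of the ages compared. Other genes named, among them Ccna2, Tpx2, Cenpe, Bub1b, Iqgap3, Pole2, Cdc25b, Troap, Ncaph, E2f1, Uhrf1, Prim1 and Mcm6, were picked after their values were seen. Promoters came from RefSeq on GRCm38.p6. Limits on 0 counts cover counting error only.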

Additional observations from a re-analysis of the deposited data

How the results depend on the processing

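The number of members called moved with most settings, and the cause was not tested except where a setting itself tests fewer samples or genes. Of the 40 members, 0 were called higher at 12 against 2 months under any alternative. Percentages in brackets below are the shares of all genes tested in that setting that were called in the same direction. The members called lower there numbered 12 with DESeq2 (4.73%), 17 with no count filter (2.11%), 5 without antigen receptor genes (2.66%) and 1 with limma voom (3.02%). At an adjusted p under 0.1 they numbered 12, and under 0.01 they numbered 0. None was called with library totals alone (0.535%), with the replicate block (1.27%) or without the 3 libraries richest in salivary gland transcripts (0.199%). The same held without both 2-month replicate 1 and 12-month replicate 3 (2.88%), a pair chosen after seeing the data. At 24 against 2 months, members called lower numbered 2 with no count filter (3.64%), 1 with limma voom (7.87%) and 1 at an adjusted p under 0.1. There 1 member, Mcm5, was higher without both 2-month replicate 1 and 12-month replicate 3 (9.4%). At 24 against 12 months 1 member, Tpx2, was higher with no count filter (2.79%). In the test of 3 ages the members called numbered 10 with DESeq2, 8 at an adjusted p under 0.1, 15 with no count filter, 3 without antigen receptor genes, 1 with limma voom, 1 without both 2-month replicate 1 and 12-month replicate 3, and 0 under the remaining settings named for 12 months.

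Over all genes, the counts called higher and lower at 12 against 2 months were 296 and 87 at an adjusted p under 0.01, 1614 and 80 with library totals alone, 1363 and 663 with no count filter, 511 and 190 with the replicate block, and 97 and 30 without the salivary-rich libraries. Those called lower were 744 at an adjusted p under 0.1, 706 with DESeq2, 105 without the 2 muscle-bearing libraries and 442 without both 2-month replicate 1 and 12-month replicate 3. At 24 against 2 months they were 538 and 353 at an adjusted p under 0.01, 2626 and 191 with library totals alone, and 484 and 142 without the salivary-rich libraries. At 24 against 12 months they were 153 and 58 at an adjusted p under 0.01, 692 and 500 at 0.1, 202 and 138 with library totals alone, 874 and 612 with no count filter, 277 and 132 with the replicate block, 733 and 477 with DESeq2, 134 and 36 without the salivary-rich libraries, 61 and 71 without the muscle-bearing libraries, and 266 higher without both 2-month replicate 1 and 12-month replicate 3. For the 3 ages they were 842 at an adjusted p under 0.01, 3853 at 0.1, 1640 with the replicate block and 471 without the salivary-rich libraries. The replicate block is not a pairing here, since the numbers pair no samples.

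With 1 library left out in turn, genes called at 12 against 2 months ran between 314 and 916 higher and 103 and 417 lower, at 24 against 2 months between 691 and 1623 higher and 469 and 1115 lower, at 24 against 12 months between 207 and 426 higher and 105 and 274 lower, and over 3 ages between 1396 and 2532. Members called lower at 12 against 2 months ran between 0 and 4, and members called over 3 ages between 0 and 2. The median log2 fold changes ran between -0.72 and -0.13 (replication) and -1.05 and -0.58 (mitosis) at 12 against 2 months, between -0.53 and 0.21 and between -0.57 and 0.04 at 24 against 2 months, and between 0.053 and 0.34 and between 0.39 and 0.74 at 24 against 12 months. The mean of mitosis minus replication levels ran between -1.35 and -1.18 for the 2-month group, between -1.79 and -1.53 for that of 12 months and between -1.40 and -1.25 for that of 24 months. It was -1.05, -1.28 and -1.08 for 2, 12 and 24 months with 0.5 CPM added, -0.90, -1.05 and -0.91 with 1 CPM added, -0.48, -0.92 and -0.49 as the log2 ratio of sums, and -1.44, -1.90 and -1.49 by medians. Single genes that changed sign at 12 against 2 months without 2-month replicate 1 were Mcm7 (0.072), Top2a (0.21) and Mcm5 (0.65), which with 1 library left out reached -0.69, -0.996 and -1.09 at the lowest. Without both 2-month replicate 1 and 12-month replicate 3 they were Mcm7 (0.15), Mki67 (0.083), Top2a (0.50), Mcm5 (0.93) and Ccne1 (0.049), and the lowest values of Mki67 and Ccne1 with 1 library left out were -0.96 and -1.23. Plk1 at 24 against 12 months was -0.22 without the muscle-bearing libraries.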
